A study of Homo sapiens with 12 samples.

Results

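The genes described here are 39 that carry out or control DNA replication and S phase, chosen by symbol from a list of helicase, polymerase, clamp, nucleotide supply and G1/S regulator genes, out of 23497 genes in the deposited count table. All 39 had enough counts to be tested, among 17114 genes tested in all, and the lowest count of any of them in a library was 80, for E2F2. The libraries hold polyadenylated RNA of WM1366, a human melanoma line with an NRAS mutation, in 4 groups of 3 libraries. Encorafenib and binimetinib were present for the EB-resistant line, vemurafenib and cobimetinib for the VC-resistant line. Dabrafenib and trametinib were present for the DT-resistant line, each pair joining a BRAF inhibitor to a MEK inhibitor. The sensitive parent line received DMSO. RNA was taken 72 h after cells of every group were plated, and 3 independent experiments were run, per the series' description. The libraries carry replicate numbers 2, 5 and 6, and the labels do not say whether equal numbers in different groups mark 1 experiment. Each drug pair is represented by 1 resistant line, and resistance, the presence of drug and the history of the culture changed together, so they cannot be told apart. Library totals ran from 40491309 to 54495132 counts, and the 39 genes took 0.146% to 0.428% of them.

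Replication begins when the origin recognition complex, CDC6 and CDT1 load the MCM helicase on DNA in G1. Cyclin E with its kinase frees E2F factors from the retinoblastoma protein, and E2F factors switch on many of the genes described here. CDC45, the GINS complex and MCM10 then turn the loaded helicase into a moving one, and primase, polymerases, the PCNA clamp and its loader copy both strands, while UHRF1 and DNMT1 copy DNA methylation onto the new strand. In melanoma cells with mutant NRAS, signalling through MEK and ERK drives entry into this programme by way of cyclin D1.

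RefSeq promoters of GRCh38.p14, from 250 bases before to 50 bases after the start of the gene, were matched by symbol for 35 of the 39 genes; CCNE2, GINS4, MCM4 and MCM5 were not matched. Canonical E2F letters, TTTCGCGC or TTTGGCGC on either strand, were present in 14 of the 35 (40%). Of all 27305 genes with a promoter in that source, 1.4% held them. TTTCGCGC was found in MCM2, MCM3, MCM6, MCM7, POLA2, UHRF1 and DNMT1, 20% of the 35 against 0.63% of all these genes. TTTGGCGC was found in MCM6, CDC6, GINS1, POLA1, POLE, POLE2, E2F1 and E2F2, 22.9% against 0.795%. The letters TTTGAA and TTCGAA, which are part of the element of mitotic genes, were found in RRM1 and in MCM6. That is 2.86% of the 35 each, against 18.2% and 1.82% of all genes with a promoter. CCAAT was found in 57.1% against 39.7%. A match is a description of these letters in this window and not a site of binding. Shown here are the promoters with E2F letters of the 4 genes of smallest adjusted p in EB-resistant against sensitive cells, as 250 bases before the start and 20 after it, read 5′ to 3′ in the direction of the gene, with the E2F letters or their reverse complement in capitals.
DNMT1 (chr19:10194934-10195203, minus strand): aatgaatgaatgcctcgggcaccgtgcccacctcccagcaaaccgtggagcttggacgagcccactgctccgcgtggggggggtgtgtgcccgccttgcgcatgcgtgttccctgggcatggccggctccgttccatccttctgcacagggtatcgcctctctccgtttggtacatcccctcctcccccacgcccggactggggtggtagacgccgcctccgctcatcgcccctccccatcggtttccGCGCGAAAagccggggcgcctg
MCM7 (chr7:100101378-100101647, minus strand): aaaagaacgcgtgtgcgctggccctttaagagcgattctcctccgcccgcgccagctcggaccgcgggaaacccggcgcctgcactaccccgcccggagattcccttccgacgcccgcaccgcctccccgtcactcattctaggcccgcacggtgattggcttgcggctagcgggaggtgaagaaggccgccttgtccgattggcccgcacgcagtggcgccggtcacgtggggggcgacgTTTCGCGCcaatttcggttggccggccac
MCM6 (chr2:135876424-135876693, minus strand): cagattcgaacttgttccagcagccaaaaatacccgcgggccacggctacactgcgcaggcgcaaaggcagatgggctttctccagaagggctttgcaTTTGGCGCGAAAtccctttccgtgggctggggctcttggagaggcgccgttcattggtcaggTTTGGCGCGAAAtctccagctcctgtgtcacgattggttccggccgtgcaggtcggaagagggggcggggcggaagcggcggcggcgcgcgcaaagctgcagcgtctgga
UHRF1 (chr19:4909894-4910163, plus strand): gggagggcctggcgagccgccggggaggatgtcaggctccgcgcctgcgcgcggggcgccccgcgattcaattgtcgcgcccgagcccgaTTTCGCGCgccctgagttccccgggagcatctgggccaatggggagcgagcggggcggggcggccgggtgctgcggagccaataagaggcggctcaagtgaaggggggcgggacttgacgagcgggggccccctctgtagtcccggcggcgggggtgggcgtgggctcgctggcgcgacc
In DNMT1 and MCM7 the letters lay next to the start, their first base 2 and 9 bases before it. MCM6 held 2 runs in which TTTGGCGC on the strand of the gene overlaps TTTCGCGC on the other strand, beginning 152 and 90 bases before the start. In UHRF1 the letters began 160 bases before it. RNA of these 4 genes is described below, each in its group.

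**Figure D1:**
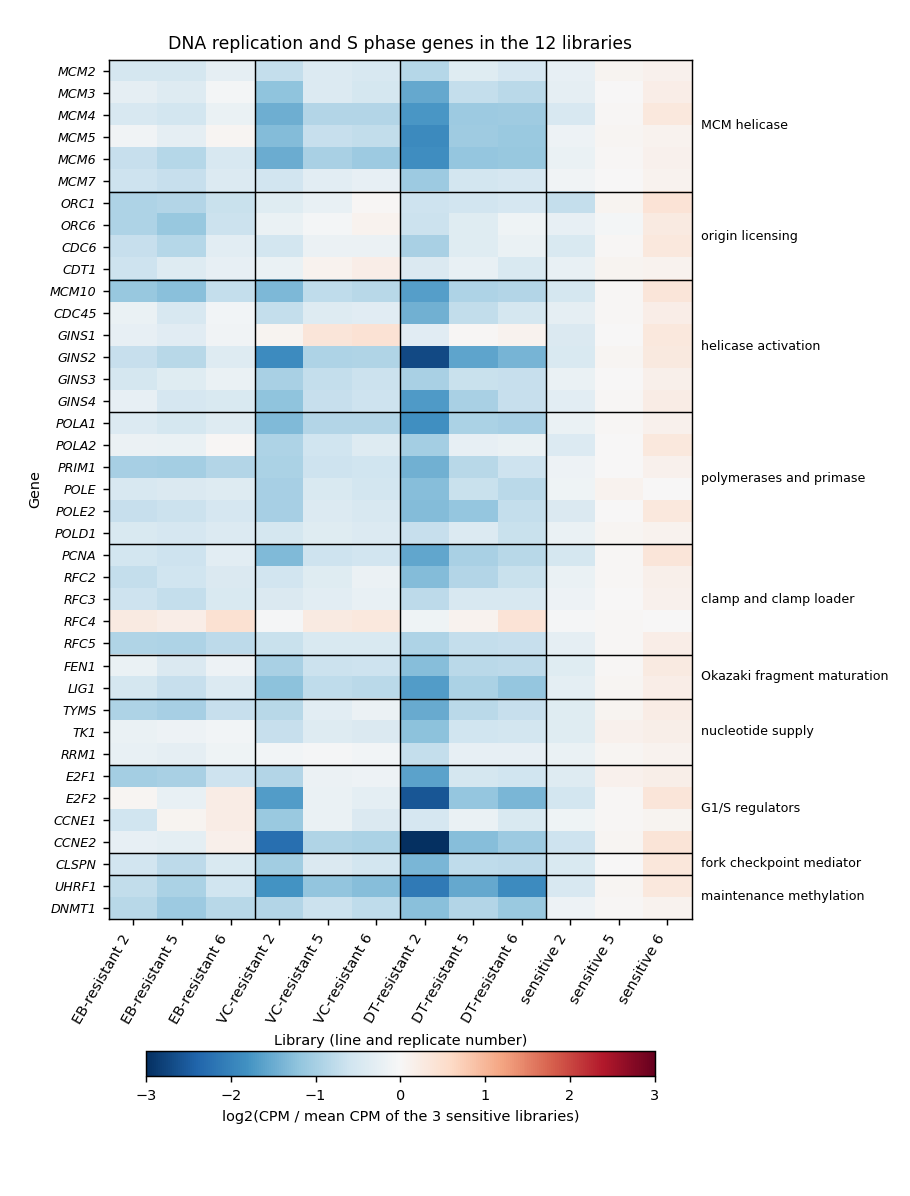
Level of each of the 39 genes in each library as log2 of its CPM over the mean CPM of the 3 sensitive libraries, with genes in rows by role and libraries in columns by line and replicate number; blue is lower and red higher. Most cells of the 3 resistant lines are blue, with the darkest in the DT-resistant replicate 2 library, and the sensitive replicate 2 library is itself bluer than the other sensitive libraries.

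Most of the 39 genes had less RNA in resistant than in sensitive cells, in each of the 3 lines, and the count was greatest in the DT-resistant line. In EB-resistant against sensitive cells 21 of 39 genes fell and 1, RFC4, rose, at an adjusted p under 0.05 in edgeR's quasi-likelihood test with Benjamini-Hochberg adjustment over all 17114 genes; of all genes tested, 27.6% fell and 28.5% rose. In VC-resistant against sensitive cells 25 fell and 0 rose, against 27.4% and 27.6% of all genes. In DT-resistant against sensitive cells 33 fell and 0 rose, against 29.3% and 29.8% of all genes. The median log2 fold change of the 39 genes was -0.46, -0.60 and -0.92 in EB-, VC- and DT-resistant cells, and that of all genes was within 0.01 of 0 in each. The 3 comparisons share the same 3 sensitive libraries, so they are not independent of each other. In bulk RNA, fewer cells in S phase and less of these RNAs per cell cannot be told apart.

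The falls were moderate in size. Among the genes called, 13, 19 and 28 of the 39 were lower by at least 1.5-fold in EB-, VC- and DT-resistant cells, against 16.2%, 16.3% and 18.3% of all genes. All resistant libraries lay below all sensitive libraries for 20, 25 and 33 of the 39, against 31.9%, 30.9% and 31.7% of all genes. Without sensitive replicate 6 the number that fell was 12 in EB-resistant and 15 in VC-resistant cells. It was 13 in EB-resistant cells without EB-resistant replicate 2. It was 15 in VC-resistant cells without VC-resistant replicate 2. In DT-resistant cells it stayed between 29 and 36 when any 1 of the 12 libraries was left out. Over all genes, these fits gave 4182 to 4950, 4082 to 4872 and 4464 to 5129 lower in EB-, VC- and DT-resistant cells. The 12 of 39 in EB-resistant cells lay near the 27.6% of all genes that fell with all 12 libraries.

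**Figure D2:**
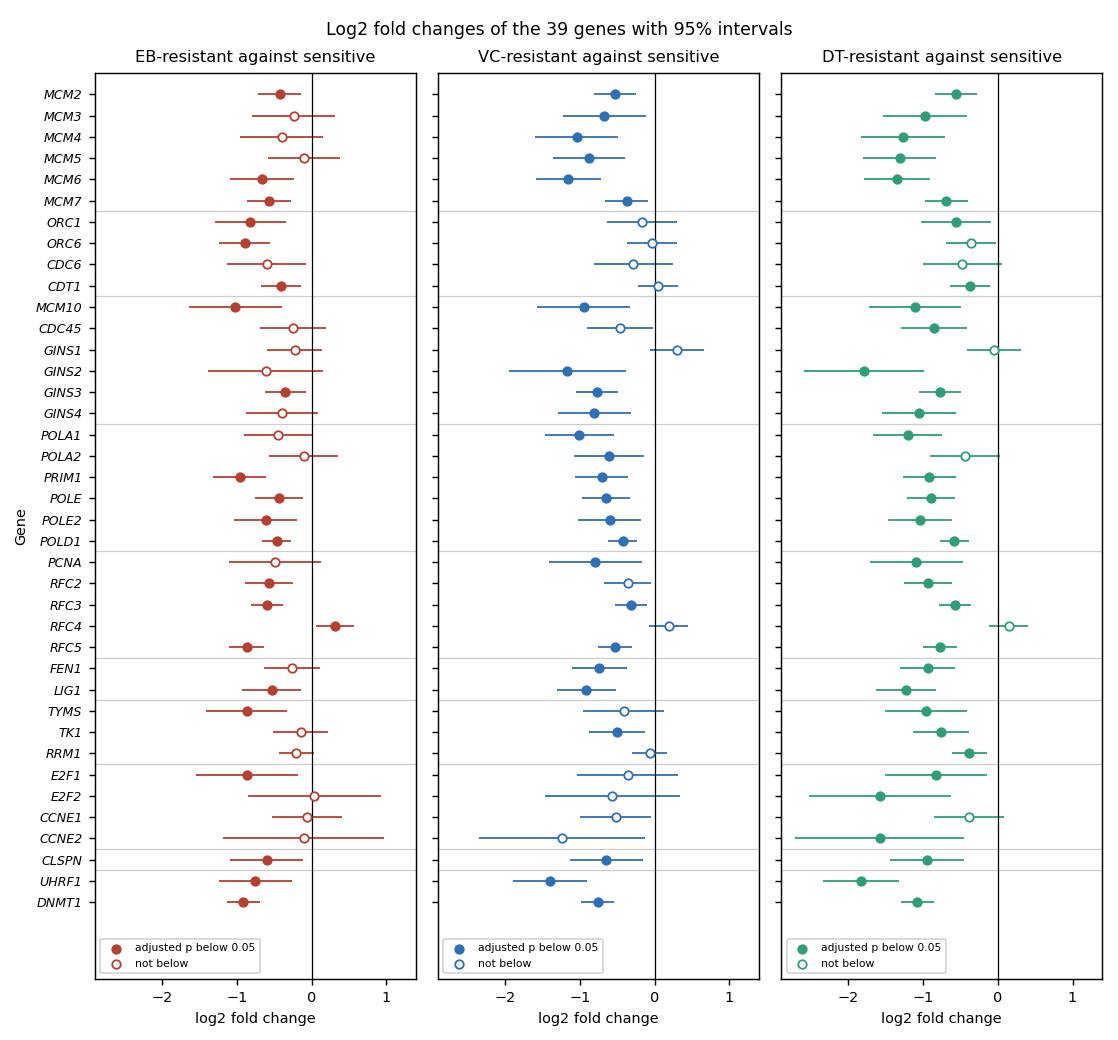
Log2 fold change of each of the 39 genes in EB-, VC- and DT-resistant against sensitive cells, with 95% intervals as lines; filled circles mark an adjusted p below 0.05 and open circles the rest. The filled circles to the left of 0 number 21, 25 and 33, and the only filled circle to the right is RFC4 in EB-resistant cells.

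Summed over the 39 genes, the level was 2571, 2422 and 2906 CPM (counts scaled to the same TMM-adjusted library total) in EB-resistant libraries 2, 5 and 6, 2068, 2687 and 2680.45 CPM in VC-resistant, 1545, 2261 and 2262 CPM in DT-resistant, and 3006, 3788 and 4203 CPM in sensitive libraries. Every resistant library was below every sensitive library in this sum. Library values below are given in the same order, replicates 2, 5 and 6. Divided by gene length, PCNA had the highest level of the 39, 107, 86.4 and 70.4 CPM per kilobase in EB-, VC- and DT-resistant cells against 149.8 in sensitive cells. POLA2 and E2F2 had the lowest, with POLA2 at 1.33, 0.933 and 1.05 CPM per kilobase in EB-, VC- and DT-resistant cells against 1.43 in sensitive cells. By mean CPM, sensitive cells were highest for 35 of the 39 genes and DT-resistant cells lowest for 27, EB-resistant cells for 9 and VC-resistant cells for 2. RFC4 was the gene whose mean was lowest in sensitive cells.

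The 6 MCM genes encode the ring of the replicative helicase, and all 6 fell in VC- and DT-resistant cells while 3, MCM2, MCM6 and MCM7, fell in EB-resistant cells. MCM6 had 111, 99.97 and 128 CPM in EB-resistant, 64.1, 92.05 and 84.9 CPM in VC-resistant and 49.1, 80.9 and 81.1 CPM in DT-resistant libraries, against 156, 184 and 197 CPM in sensitive libraries. All sensitive libraries were above all others, and the VC- and DT-resistant libraries were lowest. MCM6 stood at log2 fold changes of -0.67 ± 0.19 (adjusted p = 0.0128) in EB-resistant cells, -1.16 ± 0.20 (adjusted p = 4.65e-04) in VC-resistant cells and -1.35 ± 0.20 (adjusted p = 1.37e-04) in DT-resistant cells. MCM7 had 129, 123 and 149 CPM in EB-resistant, 133, 159 and 166 CPM in VC-resistant and 94.02, 136 and 139 CPM in DT-resistant libraries, against 183, 200.1 and 212 CPM in sensitive libraries. Here the lines were closer to each other, and again no resistant library reached a sensitive one. MCM7 was fitted at log2 fold changes of -0.57 ± 0.14 (adjusted p = 0.00265) in EB-resistant cells, -0.38 ± 0.14 (adjusted p = 0.0303) in VC-resistant cells and -0.69 ± 0.14 (adjusted p = 6.96e-04) in DT-resistant cells. MCM2 had 79.8, 80.3 and 96.1 CPM in EB-resistant, 69.7, 86.9 and 82.2 CPM in VC-resistant and 64.1, 88.8 and 81.2 CPM in DT-resistant libraries, against 96.7, 123 and 126 CPM in sensitive libraries, and the EB-resistant replicate 6 library lay just under the lowest sensitive library. MCM2 had log2 fold changes of -0.43 ± 0.13 (adjusted p = 0.0132) in EB-resistant cells, -0.53 ± 0.13 (adjusted p = 0.00387) in VC-resistant cells and -0.56 ± 0.13 (adjusted p = 0.00242) in DT-resistant cells.

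MCM5 had the largest fold changes between lines among the MCM genes, as given with those comparisons. It had 108, 96.4 and 119.9 CPM in EB-resistant, 47.2, 71.995 and 69.2 CPM in VC-resistant and 30.6, 55.2 and 53.7 CPM in DT-resistant libraries, against 103, 119.7 and 124 CPM in sensitive libraries. The EB-resistant libraries overlapped the sensitive ones, whereas all VC- and DT-resistant libraries were below both. MCM5 stood at log2 fold changes of -0.10 ± 0.22 (adjusted p = 0.729) in EB-resistant cells, -0.88 ± 0.22 (adjusted p = 0.00593) in VC-resistant cells and -1.32 ± 0.22 (adjusted p = 4.40e-04) in DT-resistant cells. MCM3 and MCM4 followed the same order, with log2 fold changes of -0.24 and -0.40 in EB-resistant cells, where neither passed the test, -0.68 and -1.05 in VC-resistant cells, and -0.98 and -1.27 in DT-resistant cells. MCM6 lost its EB-resistant call when sensitive replicate 6 was left out (adjusted p = 0.0546). MCM2 lost it when EB-resistant replicate 2 or sensitive replicate 5 or 6 was left out (adjusted p from 0.053 to 0.062). MCM7 lost its VC-resistant call when VC-resistant replicate 2 or 5 or sensitive replicate 5 or 6 was left out (adjusted p from 0.0543 to 0.125). MCM3 lost it when EB-resistant replicate 2, 5 or 6, VC-resistant replicate 2 or 6, DT-resistant replicate 6 or sensitive replicate 5 or 6 was left out (adjusted p from 0.0517 to 0.143).

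Of the 4 origin licensing genes, 3 fell in EB-resistant cells, 0 in VC-resistant cells and 2 in DT-resistant cells. ORC6, the smallest subunit of the origin recognition complex, had 11.3, 9.81 and 13.8 CPM in EB-resistant, 18.9, 20.9 and 23.3 CPM in VC-resistant and 13.8, 16.9 and 19.9 CPM in DT-resistant libraries, against 18.3, 20.6 and 25.9 CPM in sensitive libraries. The EB-resistant libraries were below all VC-resistant and all sensitive libraries, and the VC- and DT-resistant libraries overlapped the sensitive ones. ORC6 was fitted at log2 fold changes of -0.89 ± 0.16 (adjusted p = 2.37e-04) in EB-resistant cells, -0.04 ± 0.16 (adjusted p = 0.854) in VC-resistant cells and -0.36 ± 0.16 (adjusted p = 0.0649) in DT-resistant cells. ORC1, the largest subunit of that complex, had 15.7, 16.4 and 18.8 CPM in EB-resistant, 23.1, 25.8 and 30.7 CPM in VC-resistant and 19.5, 20.03 and 21.2 CPM in DT-resistant libraries, against 18.1, 31.9 and 39.7 CPM in sensitive libraries, with sensitive replicate 2 inside the EB-resistant range and below every DT-resistant library. ORC1 had log2 fold changes of -0.82 ± 0.22 (adjusted p = 0.00652) in EB-resistant cells, -0.17 ± 0.21 (adjusted p = 0.521) in VC-resistant cells and -0.56 ± 0.22 (adjusted p = 0.0405) in DT-resistant cells. CDT1, which brings the MCM ring to the origin, had 28.3, 33.1 and 36.8 CPM in EB-resistant, 37.7, 47.01 and 49.6 CPM in VC-resistant and 32.02, 37.1 and 31.7 CPM in DT-resistant libraries, against 37.5, 46.2 and 46.6 CPM in sensitive libraries. All EB- and DT-resistant libraries lay below the sensitive ones, and the VC-resistant libraries overlapped them. CDT1 stood at log2 fold changes of -0.41 ± 0.12 (adjusted p = 0.0108) in EB-resistant cells, 0.04 ± 0.12 (adjusted p = 0.784) in VC-resistant cells and -0.37 ± 0.12 (adjusted p = 0.0179) in DT-resistant cells. CDC6, the loading ATPase, passed the test in no line, with intervals of -1.14 to -0.07, -0.82 to 0.25 and -1.005 to 0.06 for its log2 fold change in EB-, VC- and DT-resistant cells. CDT1 lost its EB-resistant call when EB-resistant replicate 2 was left out (adjusted p = 0.068) and its DT-resistant call when DT-resistant replicate 2 or 6 or sensitive replicate 5 or 6 was left out (adjusted p from 0.056 to 0.0707). ORC1 lost its DT-resistant call when EB-resistant replicate 2, 5 or 6, VC-resistant replicate 2 or 5, DT-resistant replicate 2, 5 or 6 or sensitive replicate 5 or 6 was left out (adjusted p from 0.052 to 0.204).

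Of the 6 genes that activate the loaded helicase, 2, 4 and 5 fell in EB-, VC- and DT-resistant cells. MCM10, which supports assembly and firing of the helicase, had 33.9, 31.1 and 44.9 CPM in EB-resistant, 29.4, 44.1 and 41.5 CPM in VC-resistant and 23.8, 39.05 and 40.5 CPM in DT-resistant libraries, against 51.4, 75.6 and 95.7 CPM in sensitive libraries. All resistant libraries were below all sensitive ones. MCM10 was fitted at log2 fold changes of -1.02 ± 0.28 (adjusted p = 0.00989) in EB-resistant cells, -0.95 ± 0.28 (adjusted p = 0.0146) in VC-resistant cells and -1.11 ± 0.28 (adjusted p = 0.00612) in DT-resistant cells. GINS3, a subunit of the GINS complex, had 14.6, 16.3 and 18.4 CPM in EB-resistant, 10.6, 12.7 and 13.5 CPM in VC-resistant and 10.6, 13.2 and 12.9 CPM in DT-resistant libraries, against 18.3, 21.2 and 23.3 CPM in sensitive libraries. The VC- and DT-resistant libraries were nearly equal and well below the sensitive ones, which EB-resistant replicate 6 just reached. GINS3 had log2 fold changes of -0.35 ± 0.13 (adjusted p = 0.0299) in EB-resistant cells, -0.77 ± 0.13 (adjusted p = 1.59e-04) in VC-resistant cells and -0.77 ± 0.13 (adjusted p = 1.29e-04) in DT-resistant cells. GINS4, of the same complex, had 18.2, 15.2 and 15.7 CPM in EB-resistant, 9.29, 13.4 and 14.1 CPM in VC-resistant and 6.66, 10.9 and 13.4 CPM in DT-resistant libraries, against 17.3, 22.01 and 25.1 CPM in sensitive libraries, and of the 3 lines only EB-resistant overlapped the sensitive libraries. GINS4 stood at log2 fold changes of -0.40 ± 0.22 (adjusted p = 0.154) in EB-resistant cells, -0.81 ± 0.23 (adjusted p = 0.00918) in VC-resistant cells and -1.06 ± 0.23 (adjusted p = 0.00156) in DT-resistant cells.

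GINS2 and GINS1 belong to the same complex. GINS2 had 19.3, 17.5 and 23.8 CPM in EB-resistant, 8.42, 16.2 and 16.5 CPM in VC-resistant and 4.77, 10.4 and 11.72 CPM in DT-resistant libraries, against 22.7, 32.4 and 37.8 CPM in sensitive libraries. The DT-resistant replicate 2 library was the lowest of all 12, and every VC- and DT-resistant library was below the sensitive ones. GINS2 was fitted at log2 fold changes of -0.62 ± 0.34 (adjusted p = 0.156) in EB-resistant cells, -1.17 ± 0.35 (adjusted p = 0.0165) in VC-resistant cells and -1.79 ± 0.36 (adjusted p = 0.00165) in DT-resistant cells. GINS1 passed the test in no line, with log2 fold changes of -0.23 (95% interval -0.59 to 0.14) in EB-resistant, 0.30 (-0.07 to 0.66) in VC-resistant and -0.05 (-0.42 to 0.32) in DT-resistant cells. CDC45, which joins GINS on the helicase, fell in DT-resistant cells at a log2 fold change of -0.85 ± 0.20 (adjusted p = 0.00336), and had -0.24 and -0.47 in EB- and VC-resistant cells without passing the test. MCM10 lost its VC-resistant call when VC-resistant replicate 2 or sensitive replicate 6 was left out (adjusted p from 0.061 to 0.0615), and GINS2 when VC-resistant replicate 2 or sensitive replicate 6 was left out (adjusted p from 0.0525 to 0.0632). GINS3 lost its EB-resistant call when EB-resistant replicate 2 or 5 or sensitive replicate 5 or 6 was left out (adjusted p from 0.0726 to 0.141).

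Polymerase and primase genes fell in 4 of 6 cases in EB-resistant, 6 of 6 in VC-resistant and 5 of 6 in DT-resistant cells. PRIM1, the catalytic primase subunit that lays the RNA primer, had 23.95, 23.4 and 25.99 CPM in EB-resistant, 24.8, 30.9 and 31.6 CPM in VC-resistant and 17.6, 26.9 and 31.05 CPM in DT-resistant libraries, against 43.1, 47.8 and 51.9 CPM in sensitive libraries. EB-resistant libraries were close to each other, and all 3 lines were below the sensitive libraries. PRIM1 had log2 fold changes of -0.96 ± 0.16 (adjusted p = 2.07e-04) in EB-resistant cells, -0.71 ± 0.16 (adjusted p = 0.00232) in VC-resistant cells and -0.92 ± 0.16 (adjusted p = 3.02e-04) in DT-resistant cells. PRIM1 shares 333 bases on the same strand with NACA, which averaged 494 CPM. POLD1, the catalytic subunit of polymerase delta, had 65.3, 62.8 and 67.04 CPM in EB-resistant, 62.5, 70.04 and 66.99 CPM in VC-resistant and 55.4, 67.1 and 56.8 CPM in DT-resistant libraries, against 78.7, 94.1 and 96.2 CPM in sensitive libraries, so that the 9 resistant libraries lay in a narrow band under the sensitive ones. POLD1 stood at log2 fold changes of -0.46 ± 0.09 (adjusted p = 4.67e-04) in EB-resistant cells, -0.43 ± 0.09 (adjusted p = 9.63e-04) in VC-resistant cells and -0.58 ± 0.09 (adjusted p = 6.13e-05) in DT-resistant cells. POLA1, the catalytic subunit of polymerase alpha, had 73.8, 67.97 and 74.9 CPM in EB-resistant, 39.2, 53.9 and 54.1 CPM in VC-resistant and 27.4, 51.5 and 49.5 CPM in DT-resistant libraries, against 86.2, 101.2 and 109 CPM in sensitive libraries. EB-resistant libraries took a middle place, above every VC- and DT-resistant and below every sensitive library. POLA1 was fitted at log2 fold changes of -0.45 ± 0.21 (adjusted p = 0.0867) in EB-resistant cells, -1.01 ± 0.21 (adjusted p = 0.00182) in VC-resistant cells and -1.21 ± 0.21 (adjusted p = 4.94e-04) in DT-resistant cells.

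POLE, the catalytic subunit of polymerase epsilon, had 47.6, 48.7 and 50.4 CPM in EB-resistant, 33.1, 48.1 and 45.2 CPM in VC-resistant and 27.4, 41.8 and 37.5 CPM in DT-resistant libraries, against 60.6, 70.7 and 66.9 CPM in sensitive libraries. All resistant libraries were below all sensitive ones. POLE had log2 fold changes of -0.43 ± 0.15 (adjusted p = 0.0226) in EB-resistant cells, -0.65 ± 0.15 (adjusted p = 0.00223) in VC-resistant cells and -0.89 ± 0.15 (adjusted p = 1.71e-04) in DT-resistant cells. POLE lost the EB-resistant call when EB-resistant replicate 2 or 5 or sensitive replicate 5 or 6 was left out (adjusted p from 0.0548 to 0.0803). POLE2, a smaller subunit of that polymerase, fell in each line, at -0.61, -0.60 and -1.04 in EB-, VC- and DT-resistant cells. POLE2 lost the EB-resistant call when EB-resistant replicate 2 or sensitive replicate 6 was left out (adjusted p from 0.0569 to 0.093) and the VC-resistant call when VC-resistant replicate 2 or sensitive replicate 6 was left out (adjusted p from 0.0788 to 0.109). POLA2, the accessory subunit of polymerase alpha, fell in VC-resistant cells, at -0.61 ± 0.22 (adjusted p = 0.0287), a call lost when VC-resistant replicate 2 or 5 or sensitive replicate 5 or 6 was left out (adjusted p from 0.0665 to 0.152). Its values were -0.11 and -0.44 in EB- and DT-resistant cells, neither past the test, and no difference between lines passed it.

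Among the clamp and its loader, 3, 3 and 4 of 5 genes fell in EB-, VC- and DT-resistant cells, and RFC4 rose in EB-resistant cells. RFC5, a small subunit of the loader, had 34.5, 34.1 and 37.2 CPM in EB-resistant, 40.4, 46.6 and 46.5 CPM in VC-resistant and 33.96, 38.9 and 40.01 CPM in DT-resistant libraries, against 53.2, 66.3 and 73.4 CPM in sensitive libraries. No resistant library reached a sensitive one, and the EB-resistant libraries were below all VC-resistant ones. RFC5 stood at log2 fold changes of -0.87 ± 0.11 (adjusted p = 7.00e-06) in EB-resistant cells, -0.53 ± 0.11 (adjusted p = 7.29e-04) in VC-resistant cells and -0.77 ± 0.11 (adjusted p = 2.32e-05) in DT-resistant cells. RFC3, another small subunit, had 53.8, 50.9 and 60.2 CPM in EB-resistant, 61.9, 67.2 and 71.2 CPM in VC-resistant and 48.6, 59.5 and 59.8 CPM in DT-resistant libraries, against 74.6, 83.7 and 90.8 CPM in sensitive libraries, again with all resistant libraries below the sensitive ones. RFC3 was fitted at log2 fold changes of -0.60 ± 0.10 (adjusted p = 1.09e-04) in EB-resistant cells, -0.31 ± 0.10 (adjusted p = 0.0142) in VC-resistant cells and -0.57 ± 0.10 (adjusted p = 1.71e-04) in DT-resistant cells. RFC3 lost the VC-resistant call when VC-resistant replicate 2 or sensitive replicate 6 was left out (adjusted p from 0.0622 to 0.0859). RFC2 had 30.2, 32.6 and 36.8 CPM in EB-resistant, 33.2, 38.2 and 43.7 CPM in VC-resistant and 19.9, 26.9 and 30.9 CPM in DT-resistant libraries, against 43.2, 50.3 and 54.6 CPM in sensitive libraries. DT-resistant replicates 2 and 5 were lowest, and only VC-resistant replicate 6 reached the sensitive range. RFC2 had log2 fold changes of -0.57 ± 0.15 (adjusted p = 0.00439) in EB-resistant cells, -0.36 ± 0.15 (adjusted p = 0.0505) in VC-resistant cells and -0.93 ± 0.15 (adjusted p = 1.07e-04) in DT-resistant cells.

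RFC4, a further small subunit of the loader, was the exception. It had 62.8, 59.7 and 70.5 CPM in EB-resistant, 50.2, 62.4 and 64.2 CPM in VC-resistant and 47.4, 55.8 and 68.5 CPM in DT-resistant libraries, against 50.6, 52.7 and 51.99 CPM in sensitive libraries. The EB-resistant libraries were above all sensitive ones, which were nearly equal to each other, and the VC- and DT-resistant libraries spread across the sensitive range. RFC4 stood at log2 fold changes of 0.31 ± 0.12 (adjusted p = 0.0388) in EB-resistant cells, 0.19 ± 0.12 (adjusted p = 0.203) in VC-resistant cells and 0.15 ± 0.12 (adjusted p = 0.318) in DT-resistant cells. That call was lost when EB-resistant replicate 2 or 6, DT-resistant replicate 5 or sensitive replicate 2, 5 or 6 was left out (adjusted p from 0.0506 to 0.127). The 18 bases that RFC4 shares with EIF4A2 lie on opposite strands. PCNA, the sliding clamp, had log2 fold changes of -0.49 ± 0.27 (adjusted p = 0.158) in EB-resistant, -0.79 ± 0.28 (adjusted p = 0.0337) in VC-resistant and -1.09 ± 0.28 (adjusted p = 0.00716) in DT-resistant cells, and the VC-resistant call was lost when VC-resistant replicate 2 or 5 or sensitive replicate 5 or 6 was left out (adjusted p from 0.0502 to 0.135).

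LIG1, the ligase that seals Okazaki fragments on the lagging strand, fell in all 3 lines, and FEN1, the nuclease that trims them, in VC- and DT-resistant cells. LIG1 had 42.6, 38.3 and 46.6 CPM in EB-resistant, 26.3, 36.5 and 35.1 CPM in VC-resistant and 19.3, 31.97 and 27.4 CPM in DT-resistant libraries, against 49.9, 64.5 and 70.4 CPM in sensitive libraries. The order was the same as for POLA1, with the EB-resistant libraries between the other resistant libraries and the sensitive ones. LIG1 was fitted at log2 fold changes of -0.54 ± 0.18 (adjusted p = 0.0236) in EB-resistant cells, -0.92 ± 0.18 (adjusted p = 0.00102) in VC-resistant cells and -1.23 ± 0.18 (adjusted p = 9.88e-05) in DT-resistant cells. LIG1 lost the EB-resistant call when EB-resistant replicate 2 or 5 or sensitive replicate 5 or 6 was left out (adjusted p from 0.0603 to 0.102). FEN1 had 105, 89.5 and 108 CPM in EB-resistant, 61.1, 77.5 and 77.9 CPM in VC-resistant and 49.4, 69.3 and 69.7 CPM in DT-resistant libraries, against 93.4, 124 and 145 CPM in sensitive libraries. EB-resistant libraries overlapped sensitive ones and lay above every VC- and DT-resistant library. FEN1 had log2 fold changes of -0.26 ± 0.17 (adjusted p = 0.214) in EB-resistant cells, -0.74 ± 0.17 (adjusted p = 0.00296) in VC-resistant cells and -0.94 ± 0.17 (adjusted p = 5.14e-04) in DT-resistant cells. FEN1 overlaps FADS2 on the same strand over 4259 bases, so its counts are uncertain where reads fit both.

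Of the genes that supply nucleotides, TYMS fell in EB- and DT-resistant cells, TK1 in VC- and DT-resistant cells and RRM1 in DT-resistant cells. TYMS, which makes thymidylate, had 118, 112 and 139 CPM in EB-resistant, 125, 180.5 and 199 CPM in VC-resistant and 78.5, 129 and 139 CPM in DT-resistant libraries, against 175, 238 and 261 CPM in sensitive libraries. EB- and DT-resistant libraries were below all sensitive ones, and VC-resistant replicates 5 and 6 were within the sensitive range. TYMS stood at log2 fold changes of -0.87 ± 0.24 (adjusted p = 0.0118) in EB-resistant cells, -0.42 ± 0.24 (adjusted p = 0.173) in VC-resistant cells and -0.96 ± 0.24 (adjusted p = 0.00679) in DT-resistant cells. TK1, which salvages thymidine, had 67.1, 69.4 and 72.8 CPM in EB-resistant, 47.6, 59.4 and 56.8 CPM in VC-resistant and 33.04, 51.3 and 52.4 CPM in DT-resistant libraries, against 60.2, 84.98 and 86.6 CPM in sensitive libraries, and here the EB-resistant libraries were the ones inside the sensitive range. TK1 was fitted at log2 fold changes of -0.15 ± 0.17 (adjusted p = 0.494) in EB-resistant cells, -0.50 ± 0.17 (adjusted p = 0.0267) in VC-resistant cells and -0.76 ± 0.17 (adjusted p = 0.00231) in DT-resistant cells. TK1 lost the VC-resistant call when VC-resistant replicate 2 or 6 or sensitive replicate 5 or 6 was left out (adjusted p from 0.0524 to 0.113). RRM1, the large subunit of ribonucleotide reductase, had log2 fold changes of -0.20 and -0.07 in EB- and VC-resistant cells, neither past the test, and -0.38 ± 0.11 (adjusted p = 0.00732) in DT-resistant cells. TYMS overlaps ENOSF1 on the other strand over 3261 bases, and the strand setting of the counting is not given in the sources used here.

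The G1/S regulators differed among themselves: 1, 0 and 3 of 4 fell in EB-, VC- and DT-resistant cells. E2F1, an activating E2F factor, had 42.3, 43.8 and 55.95 CPM in EB-resistant, 46.9, 76.4 and 77.6 CPM in VC-resistant and 28.3, 60.005 and 56.9 CPM in DT-resistant libraries, against 66.1, 94.3 and 97.6 CPM in sensitive libraries. EB- and DT-resistant libraries were below the sensitive ones, and VC-resistant replicates 5 and 6 were not. E2F1 had log2 fold changes of -0.86 ± 0.30 (adjusted p = 0.0354) in EB-resistant cells, -0.36 ± 0.30 (adjusted p = 0.34) in VC-resistant cells and -0.83 ± 0.30 (adjusted p = 0.0391) in DT-resistant cells. E2F1 lost the EB-resistant call when EB-resistant replicate 2 or 5 or sensitive replicate 5 or 6 was left out (adjusted p from 0.0949 to 0.109) and the DT-resistant call when EB-resistant replicate 5, VC-resistant replicate 5 or 6, DT-resistant replicate 2 or 6 or sensitive replicate 5 or 6 was left out (adjusted p from 0.0506 to 0.117). E2F2, another activating factor, had 10.5, 8.67 and 11.8 CPM in EB-resistant, 3.15, 8.83 and 8.25 CPM in VC-resistant and 1.70, 4.54 and 3.92 CPM in DT-resistant libraries, against 6.86, 10.4 and 13.01 CPM in sensitive libraries. EB-resistant libraries were within the sensitive range, DT-resistant libraries were below it, and VC-resistant replicate 2 stood apart from the other VC-resistant libraries. E2F2 stood at log2 fold changes of 0.03 ± 0.40 (adjusted p = 0.953) in EB-resistant cells, -0.57 ± 0.41 (adjusted p = 0.261) in VC-resistant cells and -1.58 ± 0.43 (adjusted p = 0.00857) in DT-resistant cells. CCNE2, a cyclin E gene, had 25.2, 24.5 and 33.3 CPM in EB-resistant, 6.22, 15.8 and 15.5 CPM in VC-resistant and 3.74, 12.2 and 13.96 CPM in DT-resistant libraries, against 19.5, 30.8 and 39.01 CPM in sensitive libraries. Replicate 2 of the VC- and DT-resistant lines was far under their other libraries, and every VC- and DT-resistant library was under the sensitive ones. CCNE2 was fitted at log2 fold changes of -0.11 ± 0.48 (adjusted p = 0.869) in EB-resistant cells, -1.24 ± 0.49 (adjusted p = 0.0577) in VC-resistant cells and -1.58 ± 0.50 (adjusted p = 0.0217) in DT-resistant cells. CCNE2 lost the DT-resistant call when sensitive replicate 5 or 6 was left out (adjusted p from 0.054 to 0.0808). CCNE1, the other cyclin E gene, passed the test in no line, with -0.06, -0.52 and -0.39 in EB-, VC- and DT-resistant cells and intervals of -0.53 to 0.41, -0.996 to -0.05 and -0.86 to 0.09. CCNE2 overlaps INTS8 over 1977 bases on the opposite strand.

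CLSPN and the methylation genes fell in all 3 lines. CLSPN, the adaptor that passes the signal of a stalled fork from ATR to CHK1, had 36.6, 31.8 and 39.7 CPM in EB-resistant, 26.7, 40.3 and 37.6 CPM in VC-resistant and 20.98, 32.2 and 31.6 CPM in DT-resistant libraries, against 39.999, 55.03 and 68.8 CPM in sensitive libraries. EB- and DT-resistant libraries were below the sensitive ones, the highest EB-resistant value only just. CLSPN had log2 fold changes of -0.60 ± 0.22 (adjusted p = 0.0379) in EB-resistant cells, -0.65 ± 0.22 (adjusted p = 0.0278) in VC-resistant cells and -0.95 ± 0.22 (adjusted p = 0.00338) in DT-resistant cells. CLSPN lost the EB-resistant call when EB-resistant replicate 2, 5 or 6, DT-resistant replicate 6 or sensitive replicate 5 or 6 was left out (adjusted p from 0.0511 to 0.164) and the VC-resistant call when VC-resistant replicate 2 or sensitive replicate 5 or 6 was left out (adjusted p from 0.0657 to 0.126). DNMT1, the maintenance methyltransferase, had 147, 124 and 148 CPM in EB-resistant, 143, 167 and 155 CPM in VC-resistant and 110.4, 142 and 121 CPM in DT-resistant libraries, against 236, 269 and 283 CPM in sensitive libraries. All 9 resistant libraries were well below all 3 sensitive ones. DNMT1 stood at log2 fold changes of -0.91 ± 0.10 (adjusted p = 2.21e-06) in EB-resistant cells, -0.76 ± 0.10 (adjusted p = 1.82e-05) in VC-resistant cells and -1.08 ± 0.10 (adjusted p = 4.90e-07) in DT-resistant cells, and no call was lost when any 1 library was left out. UHRF1, which recognises DNA methylated on the old strand alone and brings DNMT1 to it, had 54.97, 47.2 and 60.4 CPM in EB-resistant, 26.3, 39.9 and 37.7 CPM in VC-resistant and 20.9, 31.3 and 24.8 CPM in DT-resistant libraries, against 65.03, 95.5 and 114 CPM in sensitive libraries. The DT-resistant mean was lowest, and no resistant library reached a sensitive one. UHRF1 was fitted at log2 fold changes of -0.75 ± 0.22 (adjusted p = 0.0129) in EB-resistant cells, -1.40 ± 0.22 (adjusted p = 3.22e-04) in VC-resistant cells and -1.83 ± 0.23 (adjusted p = 4.11e-05) in DT-resistant cells. UHRF1 lost the EB-resistant call when sensitive replicate 6 was left out (adjusted p = 0.0566). DNMT1 overlaps S1PR2 on the same strand over 9854 bases, and S1PR2 averaged 4.51 CPM over the 12 libraries against 170.5 CPM for DNMT1.

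**Figure D3:**
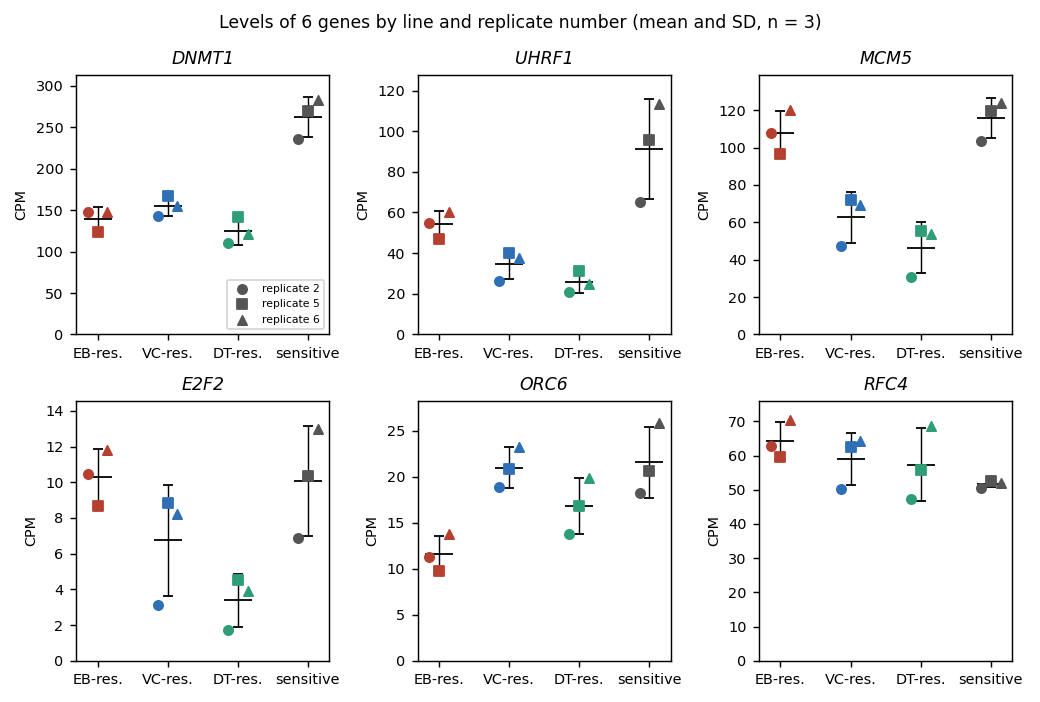
CPM of DNMT1, UHRF1, MCM5, E2F2, ORC6 and RFC4 in each library, with symbols for replicate numbers 2, 5 and 6, a horizontal bar for the mean and a vertical bar for the SD (n = 3). DNMT1 and UHRF1 are lower in all 3 resistant lines, MCM5 and E2F2 overlap sensitive in EB-resistant cells, ORC6 is lowest in EB-resistant cells, and RFC4 is highest there.

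Direct tests between the resistant lines placed EB-resistant cells above the other lines for some genes, among them MCM5, UHRF1 and FEN1, and below for others, among them ORC6. In EB-resistant against VC-resistant cells 7 of the 39 genes were higher and 6 lower, against 29.6% and 28.8% of all genes, and the median log2 fold change was 0.12. Of these, 3 were higher and 2 lower by at least 1.5-fold, against 19.6% and 17% of all genes. All 4 counts were smaller shares of the 39 than the shares of all genes. By adjusted p the first 5 of those higher were MCM5 at 0.78 ± 0.22 (adjusted p = 0.0103), GINS3 at 0.42 ± 0.13 (adjusted p = 0.0131), UHRF1 at 0.64 ± 0.22 (adjusted p = 0.0279), FEN1 at 0.48 ± 0.17 (adjusted p = 0.0293) and POLA1 at 0.56 ± 0.21 (adjusted p = 0.0394), and the others were MCM4 and MCM6. The first 5 of those lower were ORC6 at -0.86 ± 0.16 (adjusted p = 3.41e-04), CDT1 at -0.45 ± 0.12 (adjusted p = 0.00553), RFC5 at -0.34 ± 0.11 (adjusted p = 0.0151), GINS1 at -0.53 ± 0.17 (adjusted p = 0.0174) and ORC1 at -0.65 ± 0.22 (adjusted p = 0.0226), followed by RFC3. Of the 4 licensing genes, 3 were lower and 0 higher in EB-resistant cells, and of the 6 MCM genes 3 were higher and 0 lower. MCM4 and MCM6 each lost the call in 9 of the 12 fits that left out 1 library (adjusted p up to 0.16 and 0.171). ORC1 lost it in 3 of them (adjusted p up to 0.0813). Calls for MCM5, ORC6, CDT1 and RFC5 held when any 1 library was left out. The count of higher genes was 12 without DT-resistant replicate 2, 4 without sensitive replicate 5, 3 without EB-resistant replicate 2, and 1 without VC-resistant replicate 2 or without EB-resistant replicate 6. The count of lower genes was 3 without EB-resistant replicate 5 or without VC-resistant replicate 6. With no filter on low counts 2 genes were higher, and with the libraries of the 2 lines alone 11 were. With the replicate number as a block 18 were higher and 10 lower. Over all genes, leaving out 1 library gave 4509 to 5309 higher and 4485 to 5216 lower. The other alternatives, the block among them, gave 4215 to 5354 higher and 4212 to 5213 lower over all genes. Correlations of equal replicate numbers between these lines were positive, but none passed 0.1.

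In EB-resistant against DT-resistant cells 16 of the 39 genes were higher and 1, ORC6, lower, against 28.4% and 28.8% of all genes, and the median log2 fold change was 0.35. Of these, 14 were higher by at least 1.5-fold, against 18.4% of all genes. The 5 higher genes of smallest adjusted p were MCM5 at 1.22 ± 0.22 (adjusted p = 7.74e-04), UHRF1 at 1.08 ± 0.23 (adjusted p = 0.00176), FEN1 at 0.68 ± 0.17 (adjusted p = 0.00473), LIG1 at 0.70 ± 0.18 (adjusted p = 0.00606) and E2F2 at 1.61 ± 0.43 (adjusted p = 0.00799). For each of these 5 all EB-resistant libraries were above all DT-resistant libraries. ORC6 had -0.54 ± 0.16 (adjusted p = 0.0108), lost when EB-resistant replicate 5 or DT-resistant replicate 6 was left out (adjusted p from 0.0524 to 0.0551). The others that were higher were TK1, POLA1, MCM3, MCM4, MCM6, GINS2, GINS3, GINS4, POLE, CDC45 and CCNE2. Without DT-resistant replicate 2 the count of higher genes was 10. Leaving out any 1 library gave 4292 to 5027 higher over all genes. Calls for MCM5, MCM6, POLA1, FEN1, LIG1, TK1, E2F2 and UHRF1 held when any 1 library was left out.

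In the fit without a replicate block, the comparison of VC-resistant with DT-resistant cells gave the fewest calls. In VC-resistant against DT-resistant cells 3 of the 39 were higher and 0 lower, against 7.08% and 8.71% of all genes, and the median log2 fold change was 0.30, with 37 of 39 values above 0. At least 1.5-fold higher or lower were 0 and 0, against 3.44% and 4.73% of all genes. The 3 were RFC2 at 0.57 ± 0.15 (adjusted p = 0.0182), CDT1 at 0.41 ± 0.12 (adjusted p = 0.0331) and DNMT1 at 0.32 ± 0.10 (adjusted p = 0.0466). RFC2 was lost when VC-resistant replicate 5 or 6 was left out (adjusted p from 0.05 to 0.0868), CDT1 when VC-resistant replicate 5 or 6 or DT-resistant replicate 2 or 6 was left out (adjusted p from 0.0855 to 0.146) and DNMT1 when EB-resistant replicate 2 or 6, VC-resistant replicate 5 or 6, DT-resistant replicate 2 or 6 or sensitive replicate 5 was left out (adjusted p from 0.05 to 0.163). The count was 5 without sensitive replicate 2, 1 without DT-resistant replicate 2, and 0 without VC-resistant replicate 5 or without VC-resistant replicate 6. Libraries of these lines with the same replicate number deviated together from their group means. With the replicate number as a block the count of higher genes was 14 in the fit of all 12 libraries. It was 28 in a fit of these 6 libraries alone, which was added after the data were seen. Calls over all genes were also more in that 6-library fit, 2100 higher and 2317 lower, against 1211 and 1491 without the block in all 12 libraries. Library by library, VC-resistant was above DT-resistant for 37, 36 and 37 of the 39 genes in replicates 2, 5 and 6. The median log2 ratios were 0.38, 0.24 and 0.23, and 34 genes were higher in all 3. These counts were not made over all genes.

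Outside the EB-resistant line, replicate 2 carried the lowest values of its group. It was lowest for 39 of 39 genes in VC-resistant, 38 of 39 in DT-resistant and 39 of 39 in sensitive cells, while in EB-resistant cells replicate 5 was lowest for 29 and replicate 2 for 10. Replicate 6 was highest for 38 genes in EB-resistant, 20 in VC-resistant, 23 in DT-resistant and 37 in sensitive cells. Within each replicate number the resistant lines stayed below sensitive: the median log2 ratio of EB-resistant to sensitive was -0.23, -0.61 and -0.54 in replicates 2, 5 and 6, that of VC-resistant to sensitive was -0.59, -0.50 and -0.66, and that of DT-resistant to sensitive was -1.04, -0.77 and -0.87. Lower in all 3 numbers were 28, 33 and 36 of the 39 genes in EB-, VC- and DT-resistant cells. The same count was not made over all genes, so no background share stands beside it. The part of this replicate pattern in any call was not tested beyond the fits that leave libraries out and the fits with a block.

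**Figure D4:**
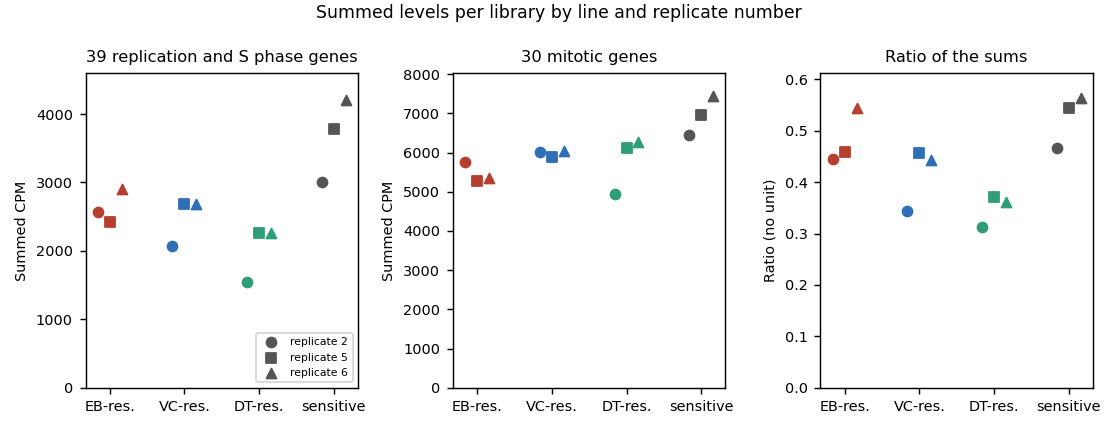
Summed CPM of the 39 replication and S phase genes (left) and of 30 mitotic genes (middle) in each library, and the ratio of these sums (right), with symbols for replicate numbers 2, 5 and 6. The ratio lies between 0.312 and 0.370 in the DT-resistant libraries, and that of VC-resistant replicate 2, at 0.344, lies within this range.

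Mitotic genes, most active in G2 and mitosis, fell too. Of 30 mitotic genes 23 fell in EB-resistant cells and 0 rose, with a median log2 fold change of -0.48, beside -0.46 for the replication genes. In VC-resistant cells 17 mitotic genes fell and 1 rose, with a median of -0.24 beside -0.60, and in DT-resistant cells 17 fell and 0 rose, with a median of -0.24 beside -0.92. The shares that fell were 76.7%, 56.7% and 56.7% in EB-, VC- and DT-resistant cells, against 27.6%, 27.4% and 29.3% of all genes. Called and lower by at least 1.5-fold were 11, 2 and 4 of the 30, against 16.2%, 16.3% and 18.3% of all genes. In VC- and DT-resistant cells these were smaller shares than those of all genes. The ratio of the summed replication to the summed mitotic level was 0.445, 0.459 and 0.544 in EB-resistant libraries, 0.344, 0.457 and 0.443 in VC-resistant libraries and 0.312, 0.370 and 0.361 in DT-resistant libraries, against 0.466, 0.545 and 0.564 in sensitive libraries. All VC- and DT-resistant libraries were below all sensitive ones in this ratio, and EB-resistant libraries were not. The count in VC-resistant cells was 10 without sensitive replicate 6, and the rise of NDC80 there, at 0.27 ± 0.10 (adjusted p = 0.0367), was lost without VC-resistant replicate 5 or 6 or sensitive replicate 2 or 5. Without DT-resistant replicate 2, the number that rose was 2 in VC-resistant and 1 in DT-resistant cells.

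In EB-resistant cells the mitotic genes of smallest adjusted p were CENPA, the centromeric histone, at -0.91 ± 0.08 (adjusted p = 1.10e-07), AURKB, a mitotic kinase, at -0.87 ± 0.08 (adjusted p = 2.55e-07), and CDK1, the kinase that starts mitosis, at -0.81 ± 0.08 (adjusted p = 4.48e-07). In VC-resistant cells they were KIF11, a spindle motor, at -0.64 ± 0.10 (adjusted p = 6.86e-05), CENPE, a kinetochore motor, at -1.39 ± 0.20 (adjusted p = 9.49e-05), and PLK1, a mitotic kinase, at -0.53 ± 0.09 (adjusted p = 1.33e-04). In DT-resistant cells they were KIF11 at -0.85 ± 0.10 (adjusted p = 4.29e-06), BIRC5 at -0.64 ± 0.09 (adjusted p = 2.00e-05) and TPX2 at -0.62 ± 0.10 (adjusted p = 5.69e-05). CDK1 had 134, 129 and 133 CPM in EB-resistant, 202, 192 and 213 CPM in VC-resistant and 177, 201 and 219 CPM in DT-resistant libraries, against 225, 224 and 247 CPM in sensitive libraries. The EB-resistant libraries stood apart at the bottom. Between lines, 17 of the 30 were lower and 3 higher in EB-resistant against VC-resistant cells, and 14 lower and 5 higher in EB-resistant against DT-resistant cells, while of the 39 replication genes 6 were lower and 7 higher, and 1 lower and 16 higher. Among all genes, 28.8% were lower and 29.6% higher in EB-resistant against VC-resistant cells, and 28.8% lower and 28.4% higher in EB-resistant against DT-resistant cells. Without EB-resistant or DT-resistant replicate 5, 9 of the 30 were lower in EB-resistant against DT-resistant cells, and without EB-resistant or DT-resistant replicate 2 the number higher was 3.

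**Figure D5:**
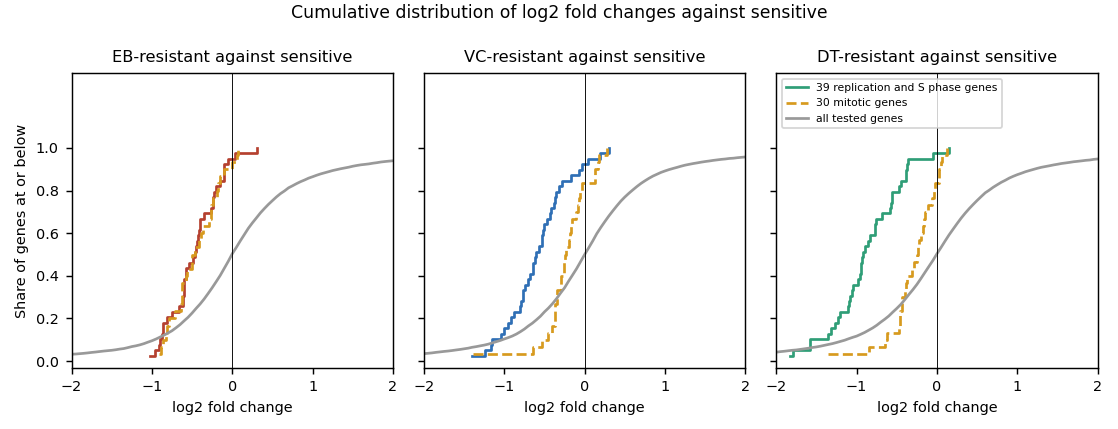
Share of genes at or below each log2 fold change in EB-, VC- and DT-resistant against sensitive cells, for the 39 replication and S phase genes, the 30 mitotic genes and all 17114 genes tested. The replication curve lies left of that of all genes at the median in each panel, with medians of -0.46, -0.60 and -0.92, and the mitotic curve, with medians of -0.48, -0.24 and -0.24, lies on it in the EB-resistant panel and right of it in the others.

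Replication genes outside the 39 moved mainly down as well. Of 45 other replication genes 30 fell and 3 rose in EB-resistant, 20 fell and 1 rose in VC-resistant and 32 fell and 1 rose in DT-resistant cells, with median log2 fold changes of -0.43, -0.30 and -0.42. The shares that fell were 66.7%, 44.4% and 71.1%, against 27.6%, 27.4% and 29.3% of all genes. In EB-resistant cells the smallest adjusted p belonged to CDK2, the kinase partner of cyclin E, at -1.14 ± 0.08 (adjusted p = 9.69e-09), MCMBP, which binds MCM proteins, at -0.95 ± 0.09 (adjusted p = 3.08e-07), and RFC1, the large subunit of the clamp loader, at -0.61 ± 0.07 (adjusted p = 1.35e-06). CDK2 had 62.1, 60.99 and 71.1 CPM in EB-resistant, 118, 112 and 118 CPM in VC-resistant and 104, 109 and 112 CPM in DT-resistant libraries, against 131, 146 and 152 CPM in sensitive libraries. The EB-resistant libraries were far below all others. In VC-resistant cells they were DCK, a nucleoside kinase, at -0.85 ± 0.10 (adjusted p = 8.09e-06), DUT, which removes dUTP, at -0.93 ± 0.11 (adjusted p = 8.31e-06), and MCMBP at -0.68 ± 0.09 (adjusted p = 1.17e-05). In DT-resistant cells they were DUT at -1.12 ± 0.11 (adjusted p = 1.05e-06), DTYMK, the thymidylate kinase, at -1.21 ± 0.14 (adjusted p = 5.04e-06), and TIMELESS, a fork protection factor, at -0.90 ± 0.12 (adjusted p = 1.89e-05). Those that rose were POLD4 at 0.64 ± 0.13 (adjusted p = 5.94e-04), ORC3 at 0.28 ± 0.07 (adjusted p = 0.00217) and ORC4 at 0.26 ± 0.08 (adjusted p = 0.0117) in EB-resistant cells, and ORC3 at 0.27 ± 0.07 (adjusted p = 0.00292) in VC-resistant and 0.31 ± 0.07 (adjusted p = 9.26e-04) in DT-resistant cells. Without sensitive replicate 6, 13 of the 45 fell in VC-resistant cells.

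Of 17 E2F family, pocket protein and MuvB genes, 5 rose and 5 fell in EB-resistant, 5 rose and 6 fell in VC-resistant and 4 rose and 9 fell in DT-resistant cells. That is 29.4% and 29.4% in EB-resistant cells, against 28.5% and 27.6% of all genes, 29.4% and 35.3% in VC-resistant cells, against 27.6% and 27.4%, and 23.5% and 52.9% in DT-resistant cells, against 29.8% and 29.3%. In EB- and VC-resistant cells these shares lay near those of all genes. In EB-resistant cells those of smallest adjusted p were TFDP2, an E2F partner, at 0.69 ± 0.09 (adjusted p = 1.57e-05), LIN54 at 0.51 ± 0.09 (adjusted p = 2.29e-04) and RB1, the retinoblastoma protein, at 0.31 ± 0.06 (adjusted p = 4.32e-04) among those that rose. Among those that fell were E2F7, a repressing E2F factor, at -1.56 ± 0.12 (adjusted p = 9.20e-08), E2F6, another repressing factor, at -0.90 ± 0.10 (adjusted p = 1.81e-06) and LIN9 at -0.65 ± 0.09 (adjusted p = 1.29e-05). The count of those that rose was 3 without sensitive replicate 5. In VC- and DT-resistant cells, which are set against the same sensitive libraries, RBL2, the p130 pocket protein, at 0.94 and 1.01, E2F5, a factor that works with it, at 0.66 and 0.87, and RB1 at 0.33 and 0.26 rose. In the same comparisons RBL1, the p107 pocket protein, at -1.13 and -1.38, E2F6 at -0.78 and -0.72, and LIN9 at -0.52 and -0.59 fell. RBL2 had 66.3, 72.8 and 63.997 CPM in EB-resistant, 103, 97.4 and 105 CPM in VC-resistant and 113, 107 and 101.2 CPM in DT-resistant libraries, against 67.7, 48.6 and 43.3 CPM in sensitive libraries, so that VC- and DT-resistant libraries were above all sensitive ones and EB-resistant libraries were not. RBL1 had 44.9, 44.3 and 46.7 CPM in EB-resistant, 28.6, 41.2 and 40.4 CPM in VC-resistant and 24.2, 35.4 and 33.2 CPM in DT-resistant libraries, against 73.7, 80.4 and 87.3 CPM in sensitive libraries. Every resistant library was below every sensitive one.

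Among 11 tested D cyclin, CDK4/6 and CDK inhibitor genes, 4 rose and 3 fell in EB-resistant cells, and 3 rose and 4 fell in VC- and in DT-resistant cells. The shares, 36.4% and 27.3% in EB-resistant and 27.3% and 36.4% in VC- and in DT-resistant cells, lay near those of all genes, which were 28.5% and 27.6%, 27.6% and 27.4%, and 29.8% and 29.3% in the same comparisons. CCND1, the cyclin D1 gene, had 46.5, 30.9 and 35.3 CPM in EB-resistant, 172, 174 and 189.9 CPM in VC-resistant and 128, 148 and 137 CPM in DT-resistant libraries, against 394, 435 and 435 CPM in sensitive libraries. It fell in each line, at -3.49 ± 0.13 (adjusted p = 3.21e-11) in EB-resistant cells, -1.24 ± 0.12 (adjusted p = 8.02e-07) in VC-resistant cells and -1.61 ± 0.12 (adjusted p = 5.00e-08) in DT-resistant cells. CDKN1A, which encodes the CDK inhibitor p21, had 28.04, 9.55 and 22.5 CPM in EB-resistant, 3.62, 3.83 and 4.03 CPM in VC-resistant and 2.40, 3.86 and 5.55 CPM in DT-resistant libraries, against 86.9, 69.01 and 68.7 CPM in sensitive libraries. It fell in each line as well, at -1.90 ± 0.36 (adjusted p = 0.00138) in EB-resistant cells, -4.29 ± 0.42 (adjusted p = 1.80e-05) in VC-resistant cells and -4.25 ± 0.41 (adjusted p = 1.48e-05) in DT-resistant cells, and the spread among its EB-resistant libraries was wide. CDK4 fell at -0.27, -0.31 and -0.49 in EB-, VC- and DT-resistant cells, with the EB-resistant call lost without EB-resistant replicate 2 or sensitive replicate 6.

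CDKN2B and CDKN1B rose in each line, and CDKN1C and CDKN2C in EB-resistant cells. CDKN2B, which encodes p15, had 37.4, 26.5 and 23.2 CPM in EB-resistant, 7.16, 4.40 and 4.61 CPM in VC-resistant and 9.53, 9.17 and 9.12 CPM in DT-resistant libraries, against 3.94, 3.33 and 3.83 CPM in sensitive libraries. CDKN2B had log2 fold changes of 2.97 ± 0.20 (adjusted p = 1.41e-08) in EB-resistant cells, 0.54 ± 0.20 (adjusted p = 0.0343) in VC-resistant cells and 1.33 ± 0.20 (adjusted p = 4.49e-05) in DT-resistant cells, and the VC-resistant call was lost without VC-resistant replicate 2 or any 1 of the 3 sensitive libraries. CDKN1C, which encodes p57, was at 2.60 ± 0.31 (adjusted p = 3.89e-06) and CDKN2C at 1.00 ± 0.15 (adjusted p = 6.27e-05) in EB-resistant cells. CDKN1B, which encodes p27, had 49.3, 58.4 and 51.3 CPM in EB-resistant, 85.9, 66.03 and 60.4 CPM in VC-resistant and 127, 86.6 and 83.3 CPM in DT-resistant libraries, against 39.3, 38.9 and 36.1 CPM in sensitive libraries. EB-, VC- and DT-resistant libraries were all above every sensitive one, with log2 fold changes of 0.48 ± 0.16 (adjusted p = 0.021), 0.89 ± 0.16 (adjusted p = 4.00e-04) and 1.376 ± 0.16 (adjusted p = 9.81e-06). The EB-resistant call was lost without EB-resistant replicate 5 or sensitive replicate 6. CDK6, a partner of the D cyclins, was at 0.46 ± 0.08 (adjusted p = 1.10e-04) in VC-resistant and 0.65 ± 0.08 (adjusted p = 3.12e-06) in DT-resistant cells. The number of this group that rose in VC-resistant cells was 5 without VC-resistant replicate 5 and 6 without DT-resistant replicate 2.

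Markers of other cells were read beside these results. Of 9 fibroblast markers 6 were tested, and their summed level was 528 to 591 CPM in EB-resistant, 281 to 314 CPM in VC-resistant and 362 to 468 CPM in DT-resistant libraries, against 110.3 to 149 CPM in sensitive libraries. Of these 6, 6 were called higher in EB-resistant cells, 4 higher and 1 lower in VC-resistant cells, and 5 higher in DT-resistant cells. The lowest log2 fold change among the 6 was 1.69, -0.84 and -0.54 in EB-, VC- and DT-resistant cells. PDGFRB averaged 74.5 ± 11.97 CPM in EB-resistant, 2.60 ± 0.311 CPM in VC-resistant and 2.49 ± 0.410 CPM in DT-resistant cells, against 0.784 ± 0.156 CPM in sensitive cells (SD, n = 3 each). LUM averaged 49.8 ± 4.76 CPM, 14.7 ± 10.2 CPM and 145 ± 54.6 CPM in EB-, VC- and DT-resistant cells, against 0.916 ± 0.377 CPM in sensitive cells. COL1A1 averaged 17.9 ± 4.27 CPM, 0.603 ± 0.381 CPM and 3.57 ± 2.46 CPM in the same order of lines, against 0.325 ± 0.0593 CPM in sensitive cells. Among the rest tested, THY1 reached 424 CPM in a library, while FAP and COL3A1 reached 3.91 and 1.63 CPM. The summed level in sensitive libraries was therefore mostly THY1, a gene that the parent line already expressed. The 3 fibroblast genes not tested, COL1A2, PDGFRA and DCN, were near 0, at most 0.334 CPM in any library. Keratinocyte markers, of which 2 of 6 were tested, summed to 16.1 to 23.8 CPM over the 12 libraries, nearly all of it KRT10. Leukocyte markers summed to at most 1.33 CPM and endothelial markers to at most 7.38 CPM in a library. Melanocyte lineage markers summed to 51.3 to 57.8 CPM in EB-resistant, 62.7 to 73.2 CPM in VC-resistant and 64.5 to 70.9 CPM in DT-resistant libraries, against 41.4 to 52.6 CPM in sensitive libraries. Among them MITF reached 72.9 CPM, PMEL, DCT and TYRP1 stayed under 1 CPM, and SOX10, MLANA, TYR and S100B were not analysed here. The share of mitochondrial counts was 1.44% to 3.29% over the 12 libraries. The part of these values in the results was not tested.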

How the data were processed

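RNA of the 12 libraries was enriched with poly-dT beads, per the labels' protocols. The authors deposited raw read counts per gene, a whole-number table of 23497 genes in which the lowest total of a gene over all libraries was 11. They also deposited a normalised signal, which equalled each count divided by a size factor of its library within 0.05. The submitters' processing notes name bcl2fastq 2.20.0, STAR 2.7.10b, featureCounts 2.0.1, DESeq2 1.38.3 and hg38. Neither the strand setting nor the annotation release is given in the sources used here. Every column was matched to a sample by its name.

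Counts were tested with edgeR 4.0.16 (R 4.3.3): filterByExpr, TMM scaling, 1 mean per group over all 12 libraries (8 residual degrees of freedom), robust quasi-likelihood F-tests and Benjamini-Hochberg adjustment over 17114 genes, with calls at an adjusted p under 0.05. CPM are on TMM-scaled totals, errors of log2 fold changes are SE, and intervals are 95%. The code was tested on simulated counts for EB-resistant and sensitive libraries alone. It recovered 52 of 100 planted 1.5-fold changes and 87 of 100 planted 2-fold changes, with 7 false calls among 15644 genes. A gene without a call may therefore still differ. Alternatives were other size factors, no or a stricter filter, DESeq2 1.42.0, limma 3.58.1 on log2(normalised count + 1), only the 2 groups compared, a replicate block and leaving out each library. Figures used matplotlib 3.10.9 under Python 3.11.15.

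The genes and the other lists were chosen with earlier results of these data known. Values per library are given for up to 2 genes per role and direction by adjusted p in each comparison with sensitive cells, statistics for up to 5 genes per direction between lines and for up to 3 per direction of each other list; GINS2, the fibroblast markers given by group, the levels of the list genes shown by library and the neighbouring genes were chosen after their values were seen. Deviations of VC- and DT-resistant libraries from their group means correlated at 0.337, 0.151 and 0.195 across genes for replicate numbers 2, 5 and 6, all above 0.1, so these numbers were taken to pair the libraries; in the other comparisons they lay between 0.001 and 0.11 and not all passed 0.1. No 2 libraries held identical counts. With 3 against 3 libraries, an exact permutation test of 1 gene cannot give a p below 0.1, so none is given.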

Additional observations from a re-analysis of the deposited data

Results flagged for a closer look

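For 33 results the effect against the shared sensitive libraries differed between resistant lines. Each passed the direct edgeR test between those lines, at an adjusted p under 0.05 over all genes tested. In EB- against VC-resistant cells 7 of the 39 genes were higher and 6 lower, smaller shares than the 29.6% and 28.8% of all genes. In EB- against DT-resistant cells 16 were higher and 1 lower, against 28.4% and 28.8%. In VC- against DT-resistant cells 3 were higher and 0 lower, against 7.08% and 8.71%. In EB-resistant against VC-resistant cells the log2 differences were 0.78 for MCM5, 0.42 for GINS3, 0.64 for UHRF1, 0.48 for FEN1, 0.56 for POLA1, 0.64 for MCM4 and 0.49 for MCM6 among those higher. Among those lower they were -0.86 for ORC6, -0.45 for CDT1, -0.34 for RFC5, -0.53 for GINS1, -0.65 for ORC1 and -0.28 for RFC3.

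In EB-resistant against DT-resistant cells the log2 difference was 1.22 for MCM5, 0.69 for MCM6, 0.87 for MCM4 and 0.74 for MCM3 among helicase subunits. It was 1.18 for GINS2, 0.42 for GINS3, 0.66 for GINS4 and 0.61 for CDC45 among helicase activators, and 0.75 for POLA1, 0.46 for POLE, 0.68 for FEN1 and 0.70 for LIG1 among enzymes of synthesis and ligation. It was 1.61 for E2F2, 1.48 for CCNE2, 0.62 for TK1 and 1.08 for UHRF1, and -0.54 for ORC6. In VC-resistant against DT-resistant cells it was 0.57 for RFC2, 0.41 for CDT1 and 0.32 for DNMT1. GINS1 passed the test between EB- and VC-resistant cells while passing it in neither line against sensitive cells.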

How the results depend on the processing

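No result turned its direction while called; over the 39 genes, 6 comparisons and all alternatives, 4086 values stayed on the same side of the threshold, 185 lost the call, 152 gained it, 0 reversed and 62 uncalled values changed sign. Leaving out 1 library moved the number higher and lower from 0 to 1 and 12 to 25 in EB-resistant against sensitive cells, 0 to 1 and 15 to 28 in VC-resistant against sensitive, and 0 to 1 and 29 to 36 in DT-resistant against sensitive. Between lines the ranges were 1 to 12 and 3 to 7 for EB- against VC-resistant, 10 to 19 and 0 to 1 for EB- against DT-resistant, and 0 to 5 higher and 0 lower for VC- against DT-resistant cells, where calls over all genes ran from 756 to 1306 higher and 966 to 1596 lower. In every such fit the 22, 25 and 33 calls against sensitive cells kept 11, 15 and 29 genes, and the 13, 17 and 3 calls between lines kept 4, 8 and 0. With no filter on low counts 2 genes were higher in EB- against VC-resistant cells. With only the 2 groups compared 11 were higher in EB- against VC-resistant and 1 in VC- against DT-resistant cells. Over the other alternatives, the block among them, 19 to 26, 22 to 31 and 31 to 37 genes fell in EB-, VC- and DT-resistant cells. Over all genes these alternatives gave 4014 to 5014, 3970 to 4989 and 4207 to 5272 lower against sensitive cells. With the replicate block 1 gene was higher in VC-resistant against sensitive cells. In the same fit 18 were higher and 10 lower in EB- against VC-resistant cells, and 14 were higher in VC- against DT-resistant cells. Only for the last of these comparisons did all 3 correlations of equal replicate numbers pass 0.1. In the others they were positive but weaker, and pairing there was not tested further. A fit of VC- and DT-resistant libraries alone with the replicate block, chosen after seeing the data, gave 28 of the 39 genes higher, and 2100 higher and 2317 lower of all genes. The cause of these shifts was not tested. With 3 libraries a group, differences of E2F2, CCNE2 and GINS2, whose values spread most, have wide intervals, and counting error is small beside that spread.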

Other observations

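The genes within 2 Mb of each of the 39, examined after the data were seen, gave a view of regional shifts in these lines. Over the 39 genes, the median of the neighbours' median log2 fold changes was 0.04, 0.03 and 0.03 in EB-, VC- and DT-resistant against sensitive cells. The gene itself lay below its neighbours' median for 38, 38 and 39 of the 39. Since 37, 36 and 38 of the 39 log2 fold changes were below 0, this largely restates the falls given above. MCM2 had 43 tested neighbours with a median log2 fold change of 1.05 in EB-resistant against sensitive cells, while MCM2 itself was at -0.43. RFC4 had 25 neighbours with a median of 0.81, beside 0.31 for RFC4 itself. The 54 neighbours of CDC45 had a median of 0.63 and the 22 of MCM5 one of 0.61, while MCM10, TYMS and POLE had neighbours at -0.58, -0.54 and -0.44. The part of these regional values in the results was not tested.

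The letters TTTGAA were found for 19 of 25 mitotic genes with a promoter (76%), against 18.2% of all genes with one. E2F letters were found for 1 of those 25 (4%) and for 9 of 34 other replication genes (26.5%), against 1.4%.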
